A study of Homo sapiens with 4 samples.

Results

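The nuclear receptor family except the steroid receptors was examined in the chromatin accessibility data of LNCaP and enzalutamide-resistant LNCaP cells. The members are 41 genes listed by symbol, out of 20037 protein-coding genes. They cover the receptors for thyroid hormone, retinoids, vitamin D, lipids and foreign compounds as well as the orphan receptors. The androgen, glucocorticoid, mineralocorticoid, progesterone and estrogen receptors were left out. For each member the summits, meaning the positions of highest signal in the called peaks, were counted in the gene body and 3.0 kb on either side in each library's own summit list.

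LNCaP is a human prostate cancer cell line grown from a lymph node metastasis, and enzalutamide is a drug that blocks the androgen receptor. Assay for transposase-accessible chromatin (ATAC-seq), which cuts and tags open DNA, was run on 2 LNCaP libraries of the genotype labelled WT and on 2 libraries of LNCaP-resistance, whose genotype is given as resistance cells and whose treatment is given as enzalutamide. The labels give 1 growth protocol with fetal bovine serum for both groups, and LNCaP carried no treatment label. By the study's methods the resistant sublines were first adapted to charcoal-stripped serum, which is poor in hormones, and then to rising enzalutamide, so adaptation to that serum and drug resistance cannot be told apart. The labels do not give the subline, the dose or the duration for the resistant cells, and nothing says that the repeats of a group were separate cultures, so the spread given here is that between 2 libraries and may be technical. The resistant group is a derivative of a single line, so clonal descent and resistance cannot be told apart.

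Nuclear receptors are transcription factors with a DNA-binding domain of zinc fingers and a ligand-binding domain, and many of them switch from corepressor to coactivator binding when a lipid-soluble ligand enters the pocket. Thyroid hormone, retinoic acid, vitamin D, PPAR and LXR receptors bind DNA as heterodimers with a retinoid X receptor, whereas others bind as monomers or homodimers, and the orphan members have no agreed natural ligand. They recognise variants of a hexamer, AGGTCA, which the steroid receptors other than the estrogen receptors do not use.

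The lists differed in length. LNCaP replicates 1 and 2 held 117245 and 107344 summits, and resistant replicates 1 and 2 held 70866 and 45618. No read depth came with the lists, so summits were compared by number, by presence and by the within-library percentile of their score, which runs from near 0 for the weakest summit of a list to 100 for the best (the score is a −log10 p- or q-value from the peak caller). With 2 libraries a group the smallest two-sided exact permutation p is 0.333, so that test could not pass, no other was run on single members, and a member was called only where the 2 groups of libraries did not overlap. The percent of all protein-coding genes or sites called by the same rule stands beside the count over all members. The cell line labels were checked against 6 luminal and 6 neuroendocrine marker genes: all 12 held a summit in every library. Of 5 markers of other cell types, the liver gene ALB held none in any library, but the immune genes PTPRC and CD3E, the endothelial PECAM1 and the fibroblast COL1A1 held summits in all 4, PTPRC at 92.8 and 92.1 in LNCaP, so presence of a summit did not separate the cell types. KLK3, which encodes prostate-specific antigen, held 1 summit per library, which ranked at 4.79 and 3.46 for LNCaP replicates 1 and 2 and at 82.7 and 60.6 for resistant replicates 1 and 2, so this luminal marker ranked low in LNCaP. Pairs of values below follow this order of replicates. The 6 luminal markers split into 3 ranked higher and 3 ranked lower in the resistant cells, and among the 6 neuroendocrine markers 0 ranked higher and 3 lower. Of all protein-coding genes, 16.3% ranked higher and 34.5% lower. KRT8 and KRT18, both counted as higher, have overlapping windows and equal percentiles in LNCaP replicate 1 and both resistant libraries. They changed by only 0.952 and 1.00 points.

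A few starts whose rank or presence differed between the groups are shown first, because the results below return to them. They were chosen after their values were seen and are not ordered by the size of the shift. Each is the 300-base RefSeq promoter window (GRCh38.p14) from 250 bases before to 50 after a listed start, read 5′ to 3′ on the gene's strand, and the capitals mark the span from the lowest to the highest summit that any library placed in the window. The NR2F1 window is chr5:93582972-93583271 on the plus strand, the RORB window chr9:74497085-74497384 on the plus strand and the RXRB window chr6:33200616-33200915 on the minus strand. Those 3 ranked higher in both resistant libraries.
NR2F1: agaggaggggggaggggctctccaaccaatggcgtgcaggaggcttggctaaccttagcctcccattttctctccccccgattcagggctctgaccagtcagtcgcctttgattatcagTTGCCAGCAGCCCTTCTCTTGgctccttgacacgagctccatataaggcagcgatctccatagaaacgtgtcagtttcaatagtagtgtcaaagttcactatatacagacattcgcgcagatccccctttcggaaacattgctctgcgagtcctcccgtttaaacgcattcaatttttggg
RORB: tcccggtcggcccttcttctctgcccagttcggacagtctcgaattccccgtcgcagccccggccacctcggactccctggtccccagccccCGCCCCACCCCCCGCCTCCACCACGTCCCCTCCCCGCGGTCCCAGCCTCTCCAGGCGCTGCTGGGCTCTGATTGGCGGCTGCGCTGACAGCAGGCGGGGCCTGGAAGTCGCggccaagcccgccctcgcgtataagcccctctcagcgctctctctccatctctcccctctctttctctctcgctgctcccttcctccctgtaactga
RXRB: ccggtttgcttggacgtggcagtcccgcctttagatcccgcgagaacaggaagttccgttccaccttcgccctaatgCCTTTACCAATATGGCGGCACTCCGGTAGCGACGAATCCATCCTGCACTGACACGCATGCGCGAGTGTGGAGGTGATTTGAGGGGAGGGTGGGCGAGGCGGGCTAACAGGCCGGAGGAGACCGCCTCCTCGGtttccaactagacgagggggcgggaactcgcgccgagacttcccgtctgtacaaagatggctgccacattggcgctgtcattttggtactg
All 4 libraries placed their NR2F1 summit within the short stretch in capitals, whereas in RORB and RXRB the summits of the libraries were further apart. Windows that ranked lower or held no summit in the resistant libraries follow, at 2 starts of ESRRG on the minus strand (chr1:217089775-217090074, then chr1:217078238-217078537) and at an internal start of RXRA on the plus strand (chr9:134379045-134379344).
ESRRG upstream start: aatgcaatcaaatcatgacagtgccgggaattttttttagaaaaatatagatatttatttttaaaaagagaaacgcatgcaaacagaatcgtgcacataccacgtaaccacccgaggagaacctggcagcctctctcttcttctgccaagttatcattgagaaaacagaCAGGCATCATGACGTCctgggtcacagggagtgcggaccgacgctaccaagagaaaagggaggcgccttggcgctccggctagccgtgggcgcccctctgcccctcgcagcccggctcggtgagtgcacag
ESRRG downstream start: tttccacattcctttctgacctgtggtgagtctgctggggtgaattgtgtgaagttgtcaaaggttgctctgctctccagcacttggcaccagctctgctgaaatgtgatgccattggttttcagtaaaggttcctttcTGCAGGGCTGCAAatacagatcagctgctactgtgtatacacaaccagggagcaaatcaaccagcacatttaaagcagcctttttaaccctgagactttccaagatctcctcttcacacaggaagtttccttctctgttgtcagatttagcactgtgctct
RXRA internal start: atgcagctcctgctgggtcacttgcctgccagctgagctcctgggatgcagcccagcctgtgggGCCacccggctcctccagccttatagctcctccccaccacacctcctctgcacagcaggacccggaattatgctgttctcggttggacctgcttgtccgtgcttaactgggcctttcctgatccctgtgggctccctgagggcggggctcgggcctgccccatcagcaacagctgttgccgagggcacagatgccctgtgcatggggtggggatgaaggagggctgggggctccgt
The RXRA capitals mark the summits of the 2 LNCaP libraries, since the resistant lists had none there. Of the 71 promoter windows listed for the members, 13 (18.3%) held AGGTCA on either strand, against 13.8% of all 34943 windows, and the second ESRRG window is among the 13. That match is a description of the letters and says nothing of which factor binds. NR0B2, NR2F6, HNF4G, NR4A2 and VDR had no entry.

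Summits were found in all but 1 of the members. NR0B2, an atypical receptor without a DNA-binding domain that represses other receptors, had no summit in any library. NR2E3, a photoreceptor gene, had 1 in LNCaP replicate 1 alone, and NR0B1, the partner of NR0B2 in its class, had 1, 0, 2 and 0 in LNCaP replicates 1 and 2 and resistant replicates 1 and 2. NR1H4, the bile acid receptor, and NR5A1, the steroidogenic factor, were found in 3 libraries each, and the other 36 members were found in all 4. No member was present in both libraries of one group and absent from both of the other, which holds for 3.15% of all protein-coding genes in the LNCaP direction and for 0.888% in the resistant direction.

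Members together held 323 and 300 summits in LNCaP and 183 and 116 in the resistant cells. As a share of each list this was 27.5 (95% Wilson interval 24.7 to 30.7) and 27.9 (25.0 to 31.3) per 10000 summits in LNCaP, and 25.8 (22.3 to 29.8) and 25.4 (21.2 to 30.5) in the resistant cells. The group means were 27.7 ± 0.282 and 25.6 ± 0.279 (SD, n = 2), a difference of -2.12 whose groups did not overlap but whose 4 counting intervals did. The difference was -0.760 with scores of at least 10 and -0.208 with 10 kb flanks. The intervals cover counting error only.

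The number of summits per member was lower in both resistant libraries than in either LNCaP library for 22 of the 41 members, against 38.2% of all protein-coding genes, and higher for 0 members, against 2.76%. With each list cut to its best 45618 summits, 7 members had fewer and 6 more, against 13.1% and 17.5% of all genes. Gene length moved with that count. Among genes whose window reached 100 kb, 76.6% had fewer summits, and 9 of the 12 such members did. Among shorter windows 29.9% had fewer, and 13 of the 29 such members did.

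**Figure D1:**
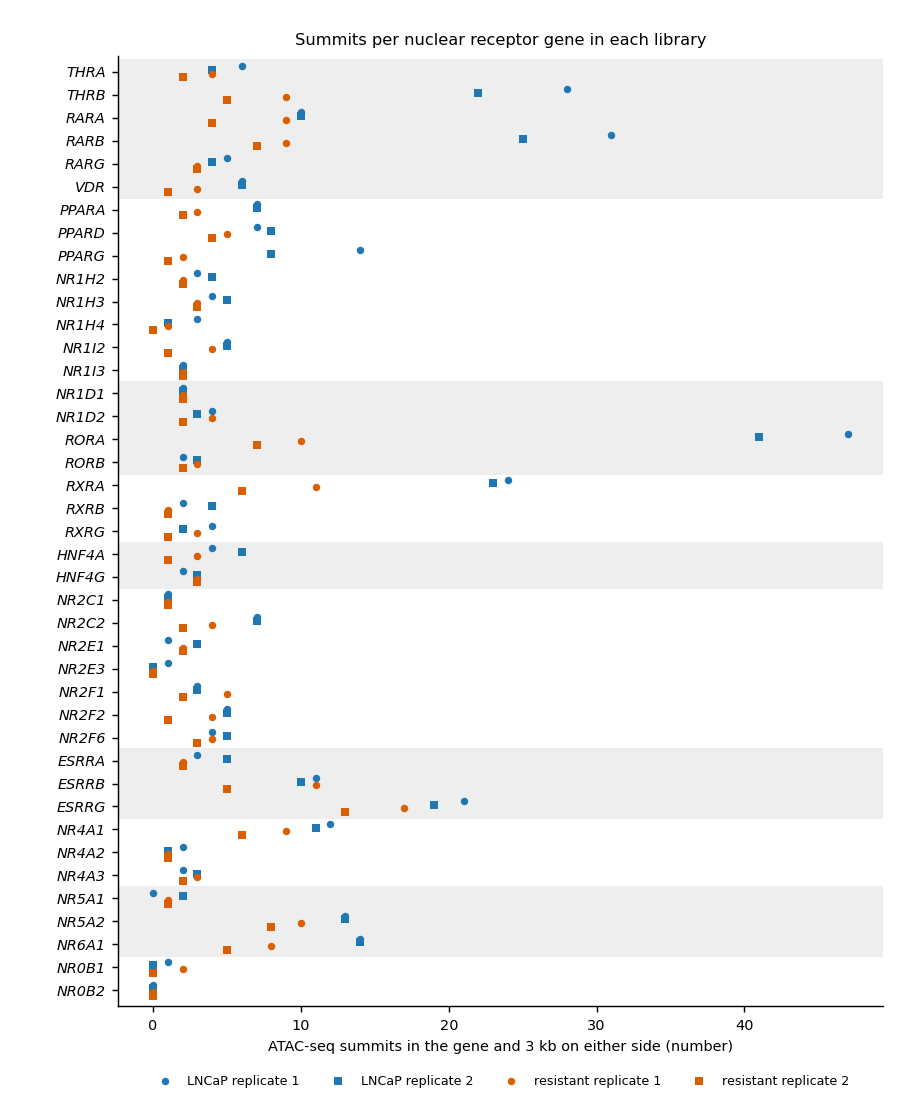
Number of summits (x axis) in the gene and 3.0 kb on either side for each of the 41 members (y axis), by library, with grey bands marking subfamilies. RORA, RARB, THRB and RXRA stand far to the right in LNCaP and near 10 or below in resistant replicate 2.

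The 6 largest falls in number among members whose groups did not overlap came from the long genes RORA, RARB, THRB, RXRA, PPARG and NR6A1. RORA encodes a monomeric orphan receptor that activates clock genes such as BMAL1, and its 747 kb window held 47 and 41 summits in LNCaP and 10 and 7 in the resistant cells. RARB, the retinoic acid receptor beta gene, held 31 and 25 against 9 and 7, and THRB, the thyroid hormone receptor beta gene, held 28 and 22 against 9 and 5. RXRA, the most widely used heterodimer partner, held 24 and 23 against 11 and 6. PPARG, the adipocyte fatty acid receptor, held 14 and 8 against 2 and 1, and NR6A1, the germ cell nuclear factor, held 14 and 14 against 8 and 5. The groups were far apart for RORA, RARB and THRB, whereas ESRRG, with a 640 kb window, held 21 and 19 against 17 and 13, with 8 of its sites in all 4 libraries.

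To compare positions, each summit was given 250 bp of flank and overlapping intervals of the 4 libraries were merged, which gave 392 sites of the members. Of these, 89 were in all 4 libraries (22.7%, against 24.1% of all sites near protein-coding genes), 130 were in both LNCaP libraries and no resistant library (33.2% against 26.6%), 10 were in both resistant libraries and no LNCaP library (2.55% against 3.67%) and 163 were in other combinations. With equal list lengths 58 were shared, 40 were in LNCaP only and 32 in the resistant cells only, and no share over all sites is given for that setting. Among those 163, 52 were in LNCaP replicate 1 alone, 28 in all but resistant replicate 2, 27 in resistant replicate 1 alone and 3 in resistant replicate 2 alone. The members' shares of shared and resistant-only sites stood near those of all sites. RORA alone supplied 32 of the 130 LNCaP-only sites, and without RORA the LNCaP-only share of the members was 28.8% of 340 sites.

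**Figure D2:**
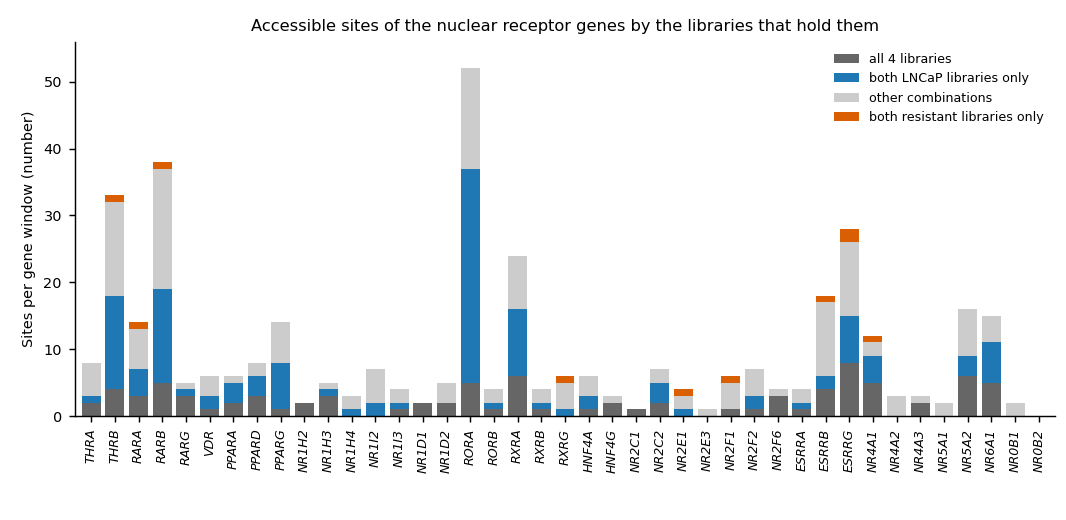
Sites per member (y axis, number) split by the libraries that held a summit there. RORA has 52 sites, of which 32 were in both LNCaP libraries only, and ESRRG has 8 sites in all 4 libraries.

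The strongest summit of a member ranked lower in both resistant libraries than in either LNCaP library for 16 of the 41, against 34.5% of all genes, and higher for 8, against 16.3%. The median change in percentile was -4.49 points for the members and -0.986 for all genes. Both splits moved with the scaling. With each list cut to its best 45618 summits, the split was 17 higher and 4 lower among members, with 43.0% and 14.4% of all genes, and with percentiles among the sites shared by the 4 libraries it was 14 higher and 10 lower, with 32.0% and 24.2%. The median change of all genes with a summit in every library went from -1.53 to 5.65 and 2.70 points in the same settings, and that of the members went from -4.53 to 2.46 and -0.773, so the members stood below all genes on each scale. All 8 members ranked higher remained higher in both settings. With equal list lengths they could not turn lower, because the cut takes more summits from the longer LNCaP lists and lowers their percentiles more. That setting is therefore no check on these 8. Their changes, between 4.42 and 38.8 points here, lay between 30.4 and 76.6 with equal list lengths. The 10 named members ranked lower had changes of -48.5 to -10.9 points, and of -25.6 to 7.16 with equal list lengths. Of these 10, 4 (HNF4A, ESRRG, THRB and NR1D2) stayed lower with equal list lengths and 9 with percentiles among shared sites. These 4 were all the members that ranked lower with equal list lengths, so no other member's lower call held in that setting.

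**Figure D3:**
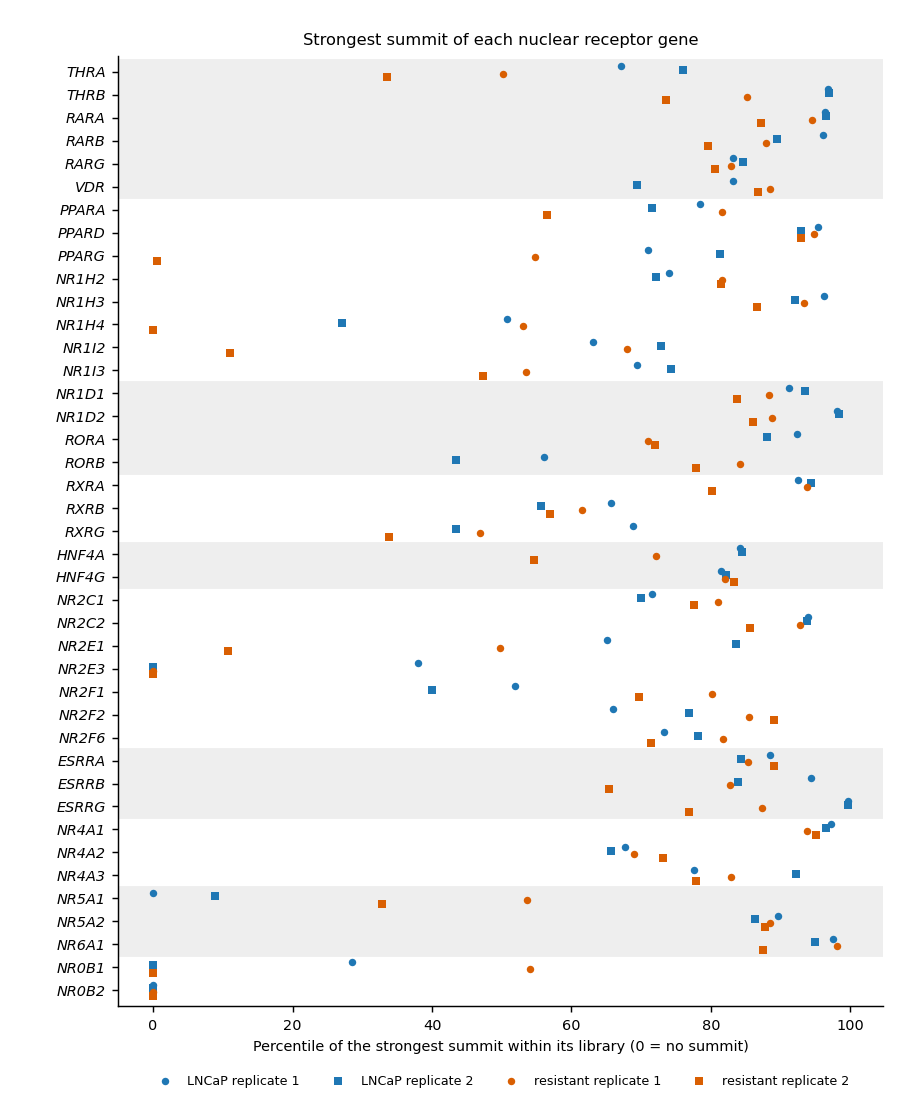
Percentile of the strongest summit of each member within its library (x axis, 0 where no summit was found), with grey bands marking subfamilies. NR2F1 and RORB lie to the right in the resistant libraries, and ESRRG, THRB and NR1D2 lie to the left.

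The hormone and retinoic acid receptors, which bind thyroid hormone, retinoic acid or vitamin D, are 6 members, of which 5 had fewer summits, 5 ranked lower and 1 ranked higher in the resistant cells. Over all protein-coding genes those shares were 38.2%, 34.5% and 16.3%, and the counts of each group below are to be read against the same 3 percentages. Of the 5 ranked lower, THRB alone stayed lower with equal list lengths. THRB ranked at 96.8 and 96.9 in LNCaP and at 85.2 and 73.5 in the resistant cells, a fall from 96.8 ± 0.0874 to 79.4 ± 8.27 (SD, n = 2), and the change of -17.4 points was -11.6 without resistant replicate 2. The 2 starts listed for THRB carried different sites in the 2 groups. A site in both LNCaP libraries at percentiles 83.1 and 66.9 lay 445 bp downstream of the inner start (chr3:24494373-24494405), near the start of THRB-AS1, and was absent from both resistant lists. About 1 kb further upstream, 135 bp downstream of the outer start, a site was in both resistant libraries at percentiles 75.0 and 72.2 (chr3:24495434-24495573) and absent from both LNCaP lists. THRA, the thyroid hormone receptor alpha gene, ranked at 67.1 and 76.0 in LNCaP and at 50.1 and 33.5 in the resistant cells, but its change of -29.7 points was -1.49 with equal list lengths and -7.03 with 10 kb flanks. RARA, which encodes retinoic acid receptor alpha, ranked at 96.3 and 96.5 against 94.5 and 87.2, and its strongest site, 52 bp upstream of a listed start, was the same in all 4 libraries. RARB ranked at 96.1 and 89.4 against 87.8 and 79.6, at a site 444 bp downstream of its first start that was its strongest in every library. RARG, the gamma form found mainly in skin, ranked at 83.1 and 84.6 against 82.9 and 80.6, a small difference, and its site at the start ranked higher, at 72.4 and 70.4 against 82.9 and 80.6. VDR, the vitamin D receptor gene, was the exception in this group. Its strongest site near the gene's 5′ end (chr12:47904721-47905097) ranked at 83.2 and 69.3 in LNCaP and at 88.5 and 86.7 in the resistant cells, a change of 11.3 points that was 18.2 without LNCaP replicate 1 and 4.41 without LNCaP replicate 2.

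The lipid and xenobiotic sensors comprise the PPARs for fatty acids, the LXRs NR1H2 and NR1H3 for oxysterols, NR1H4 for bile acids, and NR1I2 and NR1I3 for drugs and other foreign compounds. Of these 8, 6 had fewer summits, 2 ranked lower and 1 ranked higher. PPARG ranked at 71.0 and 81.4 in LNCaP and at 54.8 and 0.629 in the resistant cells, so most of its fall of 48.5 points came from resistant replicate 2, and it fell by 21.4 points without that library and by 75.6 without resistant replicate 1. Its one site at a start, 583 bp downstream, was in the LNCaP libraries only. NR1I3 ranked at 69.3 and 74.3 against 53.5 and 47.3, but rose by 7.16 points with equal list lengths. NR1H2 ranked at 74.0 and 72.1 against 81.6 and 81.4. Its strongest site was 72 bp upstream of its own start in LNCaP and lay near the start of POLD1, its downstream neighbour, in the resistant cells. PPARA, the PPAR of liver and muscle, overlapped at 78.5 and 71.5 against 81.5 and 56.5. So did NR1H3, at 96.2 and 92.0 against 93.3 and 86.7, with its strongest site in every library 40 bp upstream of a start and near that of ACP2. NR1I2 overlapped too, at 63.1 and 72.8 against 68.0 and 11.0, where resistant replicate 2 stood apart. PPARD, the ubiquitous PPAR, overlapped in its strongest summit (95.3 and 92.9 against 94.8 and 92.9), yet its strongest site lay 72.8 kb downstream of the listed start in LNCaP and at that start in the resistant cells.

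Clock receptors include NR1D1 and NR1D2, the REV-ERB repressors of BMAL1, and the ROR activators that share their DNA sites. Of these 4, 3 ranked lower and 1 higher. NR1D2 ranked at 98.1 and 98.4 in LNCaP and at 88.7 and 86.0 in the resistant cells, from 98.3 ± 0.165 to 87.4 ± 1.93 (SD, n = 2). In LNCaP replicate 1 and resistant replicate 2 its strongest summit lay at a listed start, near that of LOC124909354. In LNCaP replicate 2 and resistant replicate 1 it lay at another site further downstream, so each SD spans different sites. NR1D1, with a site 58 bp upstream of its start, ranked at 91.2 and 93.5 against 88.4 and 83.8. RORA ranked at 92.3 and 88.1 against 71.0 and 71.9, a change that reversed to 2.05 points with 10 kb flanks. The table of starts held only 1 start for RORA, far from the gene's 5′ end, so its sites could be placed against that start alone. Of the 6 strongest LNCaP-only sites of all members, 5 were in RORA, at percentiles 91.1 and 87.6, 90.03 and 88.1, 90.6 and 86.1, 92.3 and 76.8, and 83.8 and 84.1. The sixth was in THRB, at 94.2 and 85.4. In the opposite direction, a RORA site 34.9 kb downstream of the listed start (chr15:60592548-60592602) ranked at 29.4 and 39.5 in LNCaP and at 71.0 and 71.9 in the resistant cells and was there the gene's strongest. RORB, a neural and retinal paralogue of RORA, went the other way as a gene. At its upstream start, shown above, the site ranked at 33.2 and 33.1 in LNCaP and at 84.2 and 77.8 in the resistant cells, from 33.1 to 81.0. The strongest RORB site of LNCaP (56.1 and 43.4), deep in the gene, had no summit in the resistant cells.

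**Figure D4:**
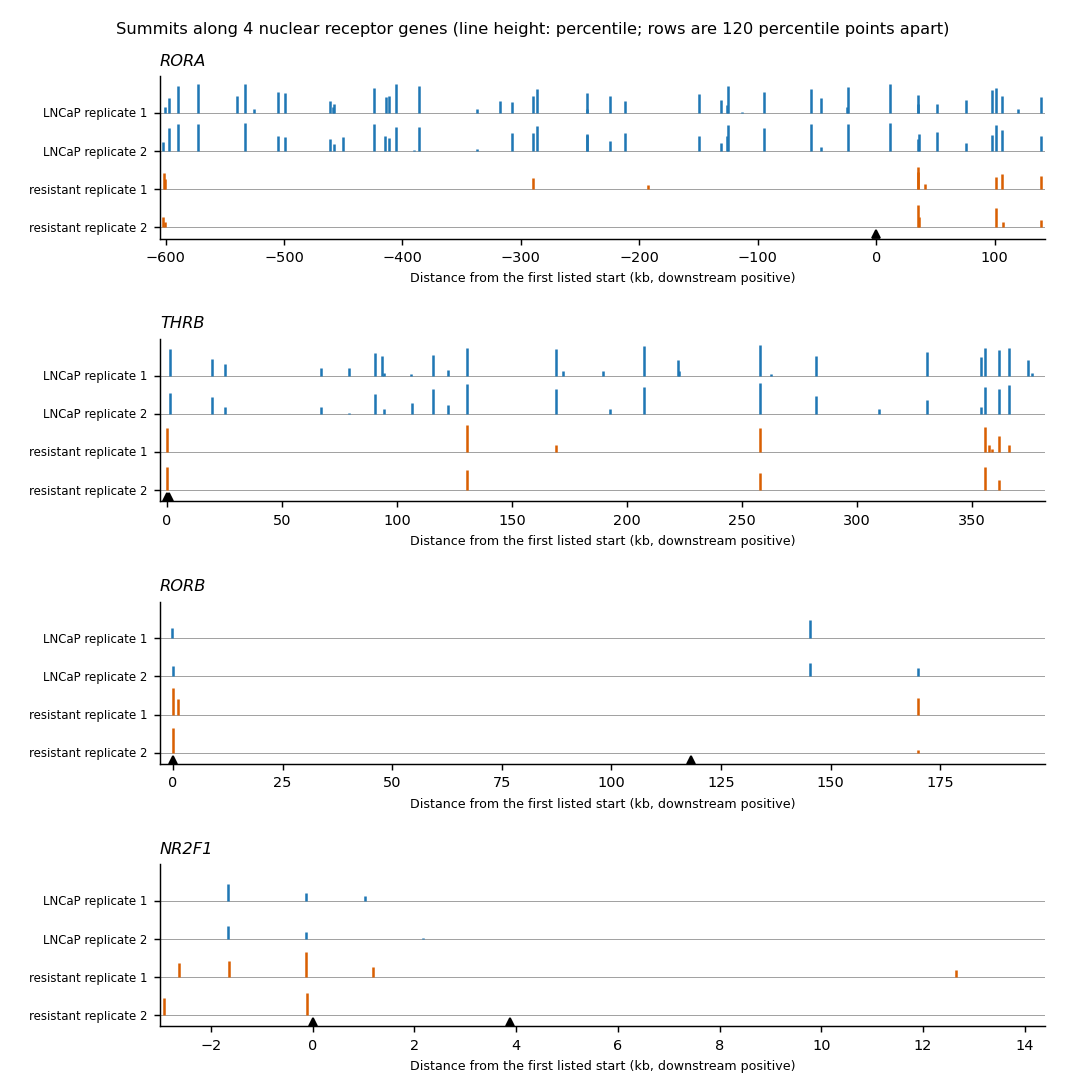
Summits along RORA, THRB, RORB and NR2F1 in each library (rows), plotted by distance in kb from the first listed start, with line height giving the percentile and triangles the listed starts. RORA and THRB lose most lines in the resistant rows, and the line at the start of RORB and of NR2F1 is taller there.

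The retinoid X receptors are the obligate partners of many members. None of the 3 changed in its strongest summit by the call, and 2 had fewer summits. Their sites at starts did differ. The site 393 bp upstream of the RXRA outer start ranked at 13.6 and 48.0 in LNCaP and at 67.0 and 55.5 in the resistant cells, while the internal start shown above held a site at 81.2 and 83.7 in LNCaP and none in the resistant cells. RXRB ranked at 38.5 and 39.7 against 61.5 and 56.9 at its start, within 1 kb of the start of SLC39A7, which is read from the other strand. RXRG had a site 28 bp upstream of its start in the resistant libraries only, at 39.2 and 33.8. A site 7.97 kb downstream of the RXRA internal start, its strongest in LNCaP, ranked at 92.5 and 94.3 there and at 51.6 and 47.2 in the resistant cells. In RXRA the outer start therefore ranked higher, and the internal start and the site beyond it lower, in the resistant libraries.

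Among the 2 HNF4 receptors, constitutively active fatty acid binding receptors of liver and gut, HNF4A ranked at 84.2 and 84.5 in LNCaP and at 72.1 and 54.6 in the resistant cells, a change of -21.0 points that was -12.3 without resistant replicate 2 and -5.90 with equal list lengths, and HNF4G overlapped (81.4 and 82.2 against 82.0 and 83.2). Orphan receptors of subfamily 2 held 7 members, with 3 ranked higher and 2 lower. NR2F1 and NR2F2 encode the COUP transcription factors, which act in neural and vascular development and often repress. The NR2F1 start ranked at 25.1 and 21.8 in LNCaP and at 80.2 and 69.7 in the resistant cells, from 23.5 to 74.9, the largest rise of any shared site of the members. The strongest NR2F1 summit in LNCaP ranked at 51.9 and 39.9 and lay upstream of that start, near the start of NR2F1-AS1. The change of the gene's strongest summit was therefore 29.0 points. A further site 2.62 kb upstream (chr5:93580303-93580604), near NR2F1-AS1, was in both resistant libraries only, at 45.1 and 56.04. The strongest NR2F2 summit ranked at 66.0 and 76.8 in LNCaP and at 85.5 and 89.0 in the resistant cells, and the change of 15.8 points was 10.4 without LNCaP replicate 1. In LNCaP replicate 1 that summit lay 2.54 kb downstream of a listed start, and in the other 3 libraries at a shared site 1.97 kb upstream of a start, which ranked at 63.5 and 76.8 against 85.5 and 89.0. NR2C1, which encodes the testicular receptor TR2, held 1 summit per library at the same site 31 bp upstream of its start, at 71.6 and 70.0 in LNCaP and 81.1 and 77.5 in the resistant cells. Its paralogue NR2C2 ranked at 93.9 and 93.7 against 92.8 and 85.6, and NR2F6 overlapped at 73.2 and 78.1 against 81.7 and 71.5. NR2E1, the neural stem cell receptor TLX, ranked at 65.0 and 83.6 in LNCaP and at 49.8 and 10.7 in the resistant cells, with resistant replicate 2 far below the other libraries, and its change of -44.0 points was -24.5 without it.

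The estrogen-related receptors act without a known hormone on mitochondrial and energy genes, and of these 3, 2 had fewer summits and 2 ranked lower. ESRRG had the highest-ranking summit of all members in LNCaP, at 99.6 in both libraries (chr1:216902858-216902866, inside the gene), and that site ranked at 73.4 and 67.7 in the resistant cells. Both printed ESRRG starts ranked lower as well. The downstream one ranked at 84.8 and 78.6 against 49.0 and 30.3, and the upstream one at 94.0 and 90.3 against 79.0 and 64.6. ESRRB ranked at 94.3 and 83.9 against 82.7 and 65.3, a change of -15.1 points that was -6.44 without resistant replicate 2, -23.8 without resistant replicate 1 and -9.93 without LNCaP replicate 1. It held the largest fall of a shared site, from 85.5 and 83.9 to 25.5 and 0.682. The ESRRB start ranked higher, at 44.7 and 56.5 against 57.3 and 65.2. ESRRA overlapped, at 88.5 and 84.3 against 85.3 and 89.1, at a site near the start of PRDX5.

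The NR4A receptors are immediate early genes whose products act without a ligand pocket. NR4A1 ranked at 97.2 and 96.5 in LNCaP and at 93.7 and 94.99 in the resistant cells. It also held the strongest resistant-only site of the members, 2.18 kb downstream of its first listed start (chr12:52025009-52025014), at 81.5 and 88.4. The next was in RARA, 3.56 kb downstream of a start, at 87.1 and 73.2. The 6 strongest such sites also include those of THRB, NR2F1 and RXRG given above and an ESRRG site at 41.9 and 30.3. NR4A2 ranked at 67.6 and 65.7 against 69.0 and 73.1, a change of 4.42 points that was 2.37 without resistant replicate 2 and 44.5 with equal list lengths. NR4A3 overlapped, at 77.5 and 92.2 against 82.9 and 77.8.

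The NR5A and NR6A receptors bind extended sites as monomers or homodimers and act in steroid, liver and germ cells. NR5A1 had no summit in LNCaP replicate 1, 2 in LNCaP replicate 2, the stronger at 8.88, and 1 in each resistant library, at 53.6 and 32.8. The stronger LNCaP summit and both resistant summits lay at 1 site 24.6 kb downstream of its start. NR5A2, the liver receptor homologue of NR5A1, overlapped (89.5 and 86.4 against 88.5 and 87.7), and its strongest site differed between the groups. Its site 48.2 kb downstream of a listed start fell from 89.5 and 86.4 to 45.1 and 53.8, and 2 sites closer to a start ranked higher. NR6A1 overlapped in its strongest summit, at 97.5 and 94.96 against 98.1 and 87.4, while the site 26 bp upstream of its start ranked higher, at 79.1 and 74.9 against 86.1 and 87.4. With 10 kb flanks the NR5A1 change reversed to -13.1 points.

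The place of the strongest summit shifted. Among the 32 members with a listed start and a summit in all 4 libraries, the strongest summit lay within 1 kb of a listed start of the gene in 9 and 7 members in LNCaP and in 14 and 16 in the resistant cells. Over the 12524 protein-coding genes with the same properties the share was 56.4% and 56.3% in LNCaP and 69.6% and 71.1% in the resistant cells, against 28.1%, 21.9%, 43.8% and 50% for the members in the same order. The shift went the same way in both sets, and the members' percentages were below those of all genes in each library. In 11 of the 36 members with a summit in all libraries, the strongest site was 1 site in both LNCaP libraries and another in both resistant libraries, against 16.3% of all such genes. They were PPARD, RORB, NR1H2, NR1I2, RXRA, RXRB, NR2E1, NR2F1, NR2F6, ESRRG and NR5A2. The strongest site was the same in all 4 libraries for 12 of the 36 members, against 58.0% of all such genes. Windows of at least 100 kb belonged to 12 of the 41 members, with 252 of the 392 member sites, but to 3550 of the 20037 genes. The comparisons of the strongest site with all genes were not split by window length, so a part played by length was not tested.

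Sites at starts and away from them behaved differently in members as in all genes. At starts, 43 sites lay within 1 kb of a listed start, of which 24 were shared (55.8%, against 60.7% of all start sites), 5 were in LNCaP only (11.6% against 5.79%) and 2 in the resistant cells only (4.65% against 4.79%). Of the 24 shared, 11 ranked higher and 7 lower, against 27.3% and 21.8% of all shared start sites. Away from starts, 59 of 333 sites were shared (17.7% against 17.1%) and 123 were in LNCaP only (36.9% against 30.9%). Of the 59, 7 ranked higher and 31 lower, against 14.5% and 49.9%. Away from starts the members' shares were thus near the background. At starts 45.8% of the members' shared sites ranked higher, a share that rests on 11 sites. With equal list lengths the counts were 6 higher and 4 lower, with no share of all start sites given for that setting. The 11 were NR2F1, RORB, RXRA, RXRB, NR4A1, ESRRB, RARG, NR6A1, PPARD, NR2C1 and NR1H2. The 7 lower were 2 sites each of RARA and ESRRG and 1 each of NR1D1, NR1D2 and RARB. The windows of the nearest starts had a median GC content of 58.3% (51.3% to 84.0%) for those that ranked higher and of 63.0% (46.0% to 77.3%) for those that ranked lower, so the 2 ranges overlapped.

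**Figure D5:**
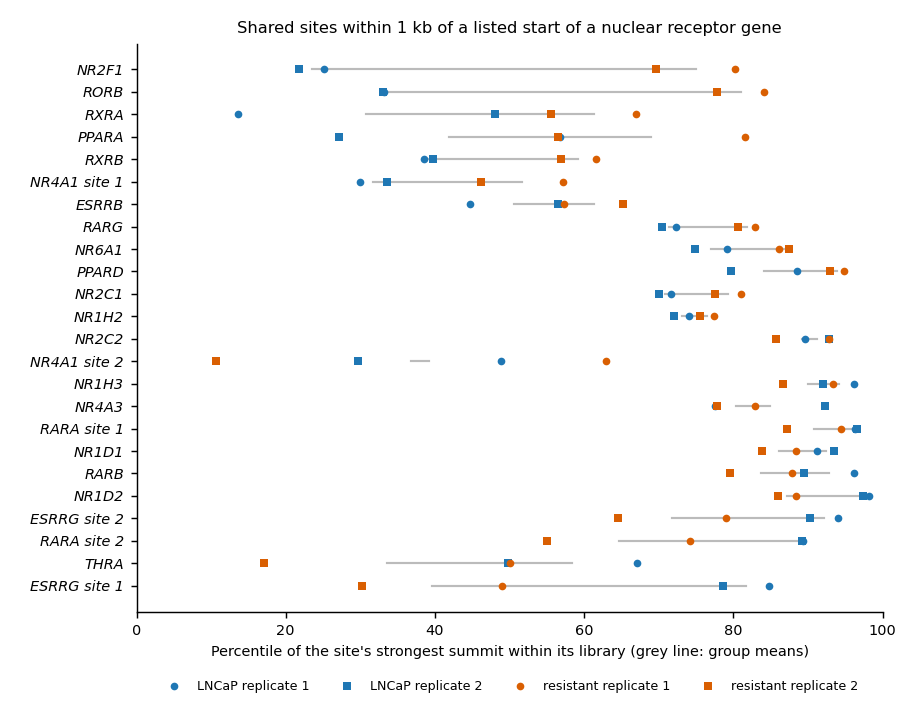
Percentile of each shared site within 1 kb of a listed start of a member (24 sites, x axis) by library, ordered by the change, with grey lines joining group means. NR2F1 and RORB moved furthest to the right in the resistant libraries and the downstream ESRRG start furthest to the left.

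Of the 392 sites, 23 in 12 members lay within 1 kb of a listed start of another gene, among them ACP2 and MADD at NR1H3, FGD5-AS1 at NR2C2 and POLD1 at NR1H2. A summit there cannot be assigned to the receptor gene rather than its neighbour.

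Genes that work with the receptors were taken as lists, and the genes named from them were chosen after their values were seen. Of 14 coregulators, the proteins that add or remove acetyl and methyl groups or link receptors to the transcription machinery, 11 had fewer summits, 1 ranked higher and 6 lower, and these and the following counts stand against 38.2%, 16.3% and 34.5% of all genes. TBL1XR1, a component of the corepressor complex, had 19 and 15 summits in LNCaP and 3 and 2 in the resistant cells. Of 22 receptor targets and ligand-handling genes, 10 had fewer summits and 2 more (against 2.76% of all genes with more), and 4 ranked higher and 12 lower. PDK4, a PPAR target that shuts off pyruvate oxidation, ranked at 67.8 and 64.5 in LNCaP and at 97.4 and 98.2 in the resistant cells. DIO1, which activates thyroid hormone, ranked at 75.8 and 69.6 in LNCaP and had no summit in the resistant cells. ABCA1, the LXR-controlled cholesterol exporter, fell from 93.2 and 95.8 to 66.0 and 63.4. Of the 6 steroid receptors, 4 had fewer summits, 1 ranked higher and 5 lower. The 5 markers of other cell types had 1 with fewer summits, 1 ranked higher and 2 lower.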

How the data were processed

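ATAC-seq summit lists of 4 libraries were analysed (2 LNCaP, 2 resistant). Per the submitters' processing notes, Bowtie2 2.2.5, SAMtools 1.6, MACS2 2.2.6, deepTools 3.5.2 and HOMER 4.11 were used with hg38. The authors deposited 1 list per library, with a score that the files hold as a −log10 value of a p- or q-value (which of these is not given in the sources used here); the lists were called per library. No read counts came with them, so depth is unknown, and 95% intervals cover counting error in summit numbers only.

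Each score was turned into the percentile within its library. Windows were RefSeq gene bounds (GRCh38.p14, matching hg38) plus 3.0 kb, and summits within 250 bp on either side were joined into sites. Listed starts came from a promoter table that is not complete. Members, gene lists and rules were chosen with earlier results of these data known. Members were named where the groups did not overlap in strongest percentile, up to 10 per direction, with the 6 largest drops in number and up to 6 sites per class. The labels give the repeat number as a batch tag. The main calls compared the groups without pairing, and the numbers were taken as pairs only in the replicate block, an alternative. In strongest percentile, the deviation of replicate 1 from its group mean was compared between LNCaP and the resistant cells. These deviations correlated at Pearson 0.0186 and Spearman 0.0107 over 15443 genes with a summit in all 4 libraries. The values of 1 gene of the target list are not reported here. Alternatives were equal list lengths, a minimum score of 10, 1 summit per 500 bp, other windows, sites and percentiles, the replicate block, and leaving out each library. The scripts were tested on simulated data and ran under Python 3.11.15 with pandas 2.3.3, numpy 2.4.6 and scipy 1.17.1, and figures were drawn with matplotlib 3.10.9.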

Additional observations from a re-analysis of the deposited data

How the results depend on the processing

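The lists of unequal length set most limits. The share of members' summits differed by -2.12 per 10000, and by -1.53 with equal list lengths, -0.760 with scores of at least 10, -2.66 with 1 kb flanks and -0.208 with 10 kb flanks. With equal list lengths 7 members had fewer summits and 6 more, 17 ranked higher and 4 lower, 3 were found in the resistant cells only, and 58 sites were shared, 40 in LNCaP only and 32 in the resistant cells only. Shared start sites were then 6 higher and 4 lower. No share over all genes or sites is given for those 3 members or for these site counts. With scores of at least 10, 11 members had fewer and 1 more, 50 sites were shared, 64 were in LNCaP only and 5 start sites ranked higher. No share over all genes or sites is given for that setting. The same holds for 1 summit per 500 bp, for sites counted by at least 1 library and for leaving out a library. With 1 summit per 500 bp, 1 member had more. Percentiles among shared sites gave 14 higher and 10 lower. Counting a site for a group by at least 1 library gave 207 LNCaP-only and 40 resistant-only sites. Start-site alternatives were added after seeing the data. Leaving out a library gave 0 to 3 members with more summits, 10 to 13 ranked higher, 16 to 25 ranked lower, 0 to 1 in LNCaP only, 0 to 1 in the resistant cells only, 12 to 37 resistant-only sites and 8 to 11 start sites ranked lower; the high values for more summits came without LNCaP replicate 2, 37 sites and 13 higher without resistant replicate 2, and 25 and 11 lower without resistant replicate 1. Among the members named for their change in percentile, NR5A1 reversed to -13.1 points and RORA to 2.05 with 10 kb flanks, and NR1I3 to 7.16 with equal list lengths. Fewer summits or sites at a shorter list follow from its construction, and the cause of the other shifts was not tested. With the replicate block, which compares libraries of the same number, 25 members had fewer summits, 0 more, 9 ranked higher and 19 lower. Over all protein-coding genes the shares under that rule were 42.2% fewer, 3.52% more, 20.8% higher and 40.6% lower. Of the members' shared start sites, 12 ranked higher and 9 lower with the replicate block, and no share of all start sites is given for it. The pairing moved no count by more than 1.5 times.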
